A study of Mus musculus with 2 samples.

Results

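The 10 genes described here are the long noncoding RNA genes Malat1, Neat1, Meg3, Rian, Mirg, Miat and Snhg11, the vesicle fusion gene Sec22b, the ubiquitin ligase gene Ltn1 and the noncoding RNA gene Gm14216. They were chosen by name, as nuclear noncoding RNAs and genes whose level had been seen to follow Malat1 across cell groups in these same cells, and they are 10 of the 30223 gene symbols measured. Because measured levels chose them, every resemblance to Malat1 below is a description, and so is the difference between the libraries for Sec22b and Gm14216, which was known when they were picked. The 10 did not form a single group. Sec22b and Ltn1 followed Malat1 in both libraries, Gm14216 did so in the knock-in library, Neat1 followed more loosely, and Meg3, Rian, Mirg, Miat and Snhg11 had a neuronal pattern of their own. Nor were all the noncoding RNAs abundant, since over all cells Rian, Mirg, Miat and Neat1 lay between 0.918 and 2.83 per 10000 of all values, against at least 205.5 for Malat1.

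Cells came from the hippocampus of C57Bl.6/J mice that were either wild-type controls or homozygous for the knock-in allele Pigv341E. Pigv encodes a mannosyltransferase needed to build the glycosylphosphatidylinositol anchor of cell surface proteins, and the study asked what the allele changes in the hippocampus. For each genotype the 8 hippocampi of 4 mice were pooled after mechanical dissociation at low temperature, so each genotype was 1 droplet library of polyadenylated RNA, and both were sequenced on 1 lane. No age or sex is given in the labels, genotype cannot be told apart from library, and no test between the 2 was possible.

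There were 7094 wild-type and 8836 knock-in cells, with 28 cell barcodes found in both. The deposited values are whole numbers already corrected for depth, with totals per cell from 4846 to 13545 (median 8631) in wild-type and from 5851 to 14501 (median 9608) in knock-in cells. The true depth of a cell is thus unknown and a 1 may stand for no molecule at all. A level sums 1 gene over a set of cells and divides by the sum of all genes in them, per 10000. Ratios are given as log2 of knock-in over wild-type after 0.1 per 10000 was added to both. Marker genes named 11 classes that had 50 cells or more in both libraries, called "-like" because they rest on markers alone. Endothelial-like (25 wild-type and 43 knock-in) and mural-like cells (27 and 49) were also named. They fell short of 50 cells and were left out of all class comparisons. Another 472 wild-type and 758 knock-in cells stayed unnamed. Median detected genes per cell were 3122 and 3736, and the median mitochondrially encoded share was 0.123% and 0.219%, in the wild-type and knock-in library.

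Malat1 is a long RNA retained in nuclear speckles, where splicing factors gather, and its gene neighbour Neat1 makes the scaffold RNA of paraspeckles. Meg3, Rian and Mirg are maternally expressed RNAs of the imprinted Dlk1-Dio3 region and host small RNAs, and Miat is another nuclear RNA of neurons. Sec22b is a SNARE protein of traffic between the endoplasmic reticulum and the Golgi, and Ltn1 (listerin) marks stalled nascent chains on the large ribosomal subunit for degradation.

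In GENCODE M21 on GRCm38, Malat1 lies on chromosome 19 from 5795690 to 5802672 on the minus strand, and Neat1 follows 22036 bases away on the same strand, from 5824708 to 5845478. Meg3 (109541001 to 109571726), Rian (109603940 to 109661716) and Mirg (109729764 to 109749460) lie in a row on the plus strand of chromosome 12, within 208459 bases. On their own strand they contain 2, 4 and 14 annotated miRNAs, and Rian also holds 13 snoRNAs. Miat is on chromosome 5 (112213228 to 112229395, minus strand). Snhg11 (158375638 to 158386145, plus strand) and Gm14216 (154722352 to 154738451, minus strand) are on chromosome 2, 3637187 bases apart. Sec22b is on chromosome 3 (97901190 to 97923276, plus strand) and Ltn1 on chromosome 16 (87376651 to 87432612, minus strand). The annotation classes Sec22b, Ltn1 and Snhg11 as protein-coding genes and the other 7 as noncoding. Neither Sec22b nor Gm14216 overlaps another annotated gene. Miat overlaps Gm26953 on the opposite strand and Rian overlaps Gm27350 on its own, so counts of these pairs depend on how reads were assigned.

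RefSeq upstream windows on GRCm38.p6 were found for 8 of the 10 genes. The 3 genes that moved together in both libraries are shown with Meg3, which did not move with them. Each line gives 200 bases that end just before the first annotated start, and capitals mark a match on either strand to any of 5 promoter motifs. The letters searched were TATAAA for the TATA box, CCAAT for the box of that name, GGGCGG for the GC box, TGACGTCA for the cAMP element and CACGTG for the E-box. The windows are Malat1 at chr19:5802673-5802872, minus strand, Sec22b at chr3:97900990-97901189, plus strand, Ltn1 at chr16:87432613-87432812, minus strand and Meg3 at chr12:109540796-109540995, plus strand.
Malat1: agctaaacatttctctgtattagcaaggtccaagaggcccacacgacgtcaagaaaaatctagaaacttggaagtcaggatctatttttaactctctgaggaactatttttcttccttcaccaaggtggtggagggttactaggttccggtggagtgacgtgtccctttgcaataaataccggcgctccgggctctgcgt
Sec22b: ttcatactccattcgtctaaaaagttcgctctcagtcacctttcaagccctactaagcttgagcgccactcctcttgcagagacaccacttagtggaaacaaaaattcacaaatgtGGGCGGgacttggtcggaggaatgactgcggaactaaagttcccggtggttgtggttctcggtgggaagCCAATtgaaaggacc
Ltn1: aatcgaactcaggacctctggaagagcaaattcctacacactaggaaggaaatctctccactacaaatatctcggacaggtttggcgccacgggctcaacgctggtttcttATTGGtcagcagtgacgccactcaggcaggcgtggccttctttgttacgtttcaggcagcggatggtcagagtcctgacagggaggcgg
Meg3: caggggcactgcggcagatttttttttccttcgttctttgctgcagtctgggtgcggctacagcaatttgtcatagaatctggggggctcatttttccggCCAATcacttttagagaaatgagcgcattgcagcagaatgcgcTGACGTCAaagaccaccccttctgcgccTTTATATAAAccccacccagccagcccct
Over the whole 250 bases upstream, Malat1 held none of the 5, Sec22b held the CCAAT box and the GC box, Ltn1 held the CCAAT box, and Meg3 held the TATA box, the CCAAT box and the cAMP element, with a TATA box match on each strand that overlap. Among 32851 windows of the same length, 33.85% held the CCAAT box, 32.7% the GC box, 12.4% the TATA box, 6.02% the E-box and 1.55% the cAMP element. No motif of the 5 was therefore shared by Malat1, Sec22b and Ltn1 in this window, and the one present in both Sec22b and Ltn1, the CCAAT box, is common. The longest exact stretch shared with the Malat1 transcript in either orientation was 14 bases for Sec22b, 19 for Ltn1 and 12 for Gm14216. It was longer for Neat1 (30), Rian (32) and Snhg11 (36). The kinase gene Abl1, which is not among the 10 and is described below, shared 26 bases. Of all annotated genes, 7.52% share 20 bases or more with Malat1.

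Malat1 had the highest level of all genes in both libraries. Its share of all values was 2.06% (wild-type) and 2.59% (knock-in), which was 76.1% and 78.05% of the sum of the 10 genes. Every cell had a value above 0. The quartiles over cells were 92, 143 and 236 for wild-type and 127, 191 and 310 for knock-in cells. The level was 205.5 and 258.97 per 10000, a log2 ratio of 0.33, so the distributions over cells overlapped widely while the knock-in one lay higher.

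Malat1 was at 547 (wild-type) and 596 (knock-in) per 10000 in the small mural-like cluster, which was not among the 11 classes. Of the 11 classes it was highest in astrocyte-like cells, with 424 and 527 per 10000. Fibroblast-like cells followed with 358 and 440, the mature oligodendrocyte-like cells with 306 and 354, and the Cajal-Retzius-like cells with 283 and 360.3. The last pair exchanged places between the libraries, so their order is not settled. Pyramidal neuron-like cells were at 153 and 222, microglia-like cells at 151 and 162, dentate granule neuron-like cells at 143 and 204, and interneuron-like cells at 122 and 162. The lowest levels were 113 and 104 in choroid plexus-like, 106 and 152 in oligodendrocyte precursor-like and 90.5 and 129 in immature neuron-like cells. Among the wild-type levels from pyramidal to immature neuron-like cells, neighbours differed by less than the libraries did. The knock-in levels put dentate granule neuron-like above microglia-like cells and choroid plexus-like cells last, so the order of these 7 classes is not the same in the 2 libraries. In 10 of 11 classes the knock-in level of Malat1 was the higher one, with log2 ratios up to 0.54 in pyramidal neuron-like cells. The exception was the choroid plexus-like class at -0.13. It turned to 0.17 when each cluster had the same weight, its pooled cell number, in both libraries. The immature neuron-like ratio of 0.51 turned to -0.37 when the clusters were remade from 15 principal components.

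**Figure D1:**
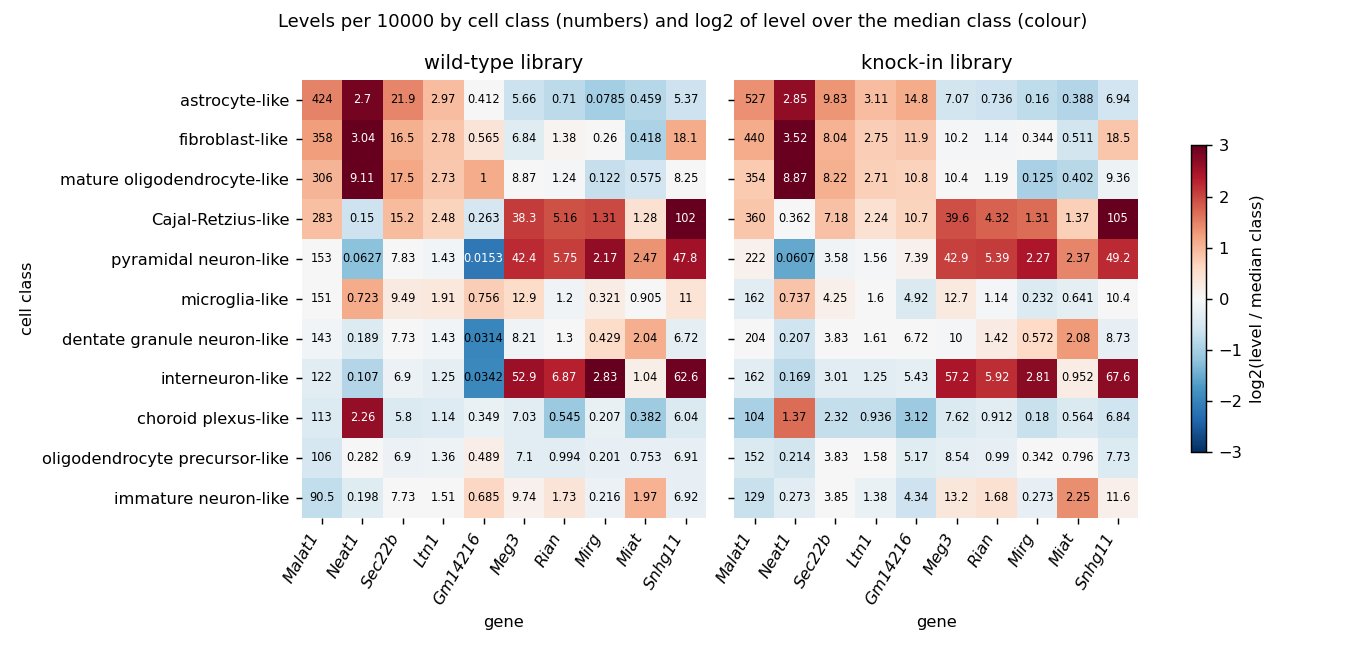
Levels per 10000 (printed numbers) of the 10 genes in 11 cell classes of the wild-type (left) and knock-in (right) library, with classes ordered by wild-type Malat1 and colour giving the log2 of the level over the gene's median class. Malat1, Sec22b and Ltn1 are above their median in astrocyte-like, fibroblast-like, mature oligodendrocyte-like and Cajal-Retzius-like cells, and Neat1 in these except the Cajal-Retzius-like cells. Meg3, Rian, Mirg and Snhg11 are above theirs in Cajal-Retzius-like, pyramidal and interneuron-like cells.

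Sec22b tracked Malat1 from cluster to cluster in both libraries. In the wild-type library it was at 21.9 per 10000 in astrocyte-like cells, 17.5 in mature oligodendrocyte-like cells, 16.5 in fibroblast-like cells and 15.2 in Cajal-Retzius-like cells, the same 4 classes that led for Malat1. The other 7 classes lay between 5.80 in choroid plexus-like and 9.49 in microglia-like cells. In the knock-in library those 4 leading classes were at 9.83, 8.22, 8.04 and 7.18 per 10000, and the other 7 between 2.32 and 4.25. Over clusters with at least 20 cells, Pearson's r of log2(level + 0.1) with Malat1 was 0.96 across 33 wild-type and 0.89 across 34 knock-in clusters. Clusters of 1 library share depth correction, lane and preparation, so these are descriptions without a test.

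The rise with Malat1 was steeper in the wild-type library. A straight line gained 4.71 per 10000 of Sec22b for each 100 per 10000 of Malat1 across wild-type clusters and 1.77 across knock-in clusters. As a percentage of Malat1, which is used here only to compare clusters, Sec22b ran from 4.30% to 8.55% (median 5.31%) over wild-type clusters and from 1.497% to 3.68% (median 1.87%) over knock-in clusters. These percentages did not overlap, while Malat1 itself spanned 8.56-fold and 8.37-fold. The Sec22b levels of the same clusters did overlap, at 4.11 to 25.9 per 10000 in wild-type and 1.51 to 9.97 in knock-in. Malat1 was also higher in the knock-in library, which lowers the percentages there. How many other genes would show such separate percentages was not counted.

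Sec22b values per cell were also lower in the knock-in library throughout their range. The wild-type quartiles were 5, 8 and 13 and the knock-in quartiles 2, 4 and 6. Its level over all cells was 11.3 in wild-type and 5.12 in knock-in cells, so that the log2 ratio was -1.12. Values above 0 were seen in 99.4% of wild-type and 96.5% of knock-in cells, and in 61.1% and 37.2% when cells were thinned to 1000 values each. A gene was called past the size rule when its absolute log2 ratio was at least 1, its level at least 1 per 10000 in a library and no fewer than 10% of the cells there above 0. All 10 genes could be judged over all cells, and 2 were past the rule, Sec22b lower and Gm14216 higher. Among all 2075 genes judged, 0.289% were past it.

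In the cell classes Sec22b was lower in 11 of 11 and past the size rule in 8. The share of all genes past the rule was 1.83% in Cajal-Retzius-like, 0.595% in astrocyte-like, 3.55% in choroid plexus-like, 0.301% in dentate granule neuron-like and 0.677% in fibroblast-like cells. It was 1.0% for immature neuron-like, 0.621% for interneuron-like, 0.457% for mature oligodendrocyte-like, 0.372% for microglia-like, 0.399% for oligodendrocyte precursor-like and 1.17% in pyramidal neuron-like cells. The Sec22b ratio ran from -1.29 in choroid plexus-like to -0.83 in oligodendrocyte precursor-like cells, a narrow band. The 3 classes short of the limit were dentate granule neuron-like (-0.99), immature neuron-like (-0.99) and oligodendrocyte precursor-like cells. With 1 per 10000 added in place of 0.1, 3 classes were past it, so the count depends on how near the ratios lie to the limit and the direction does not.

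**Figure D2:**
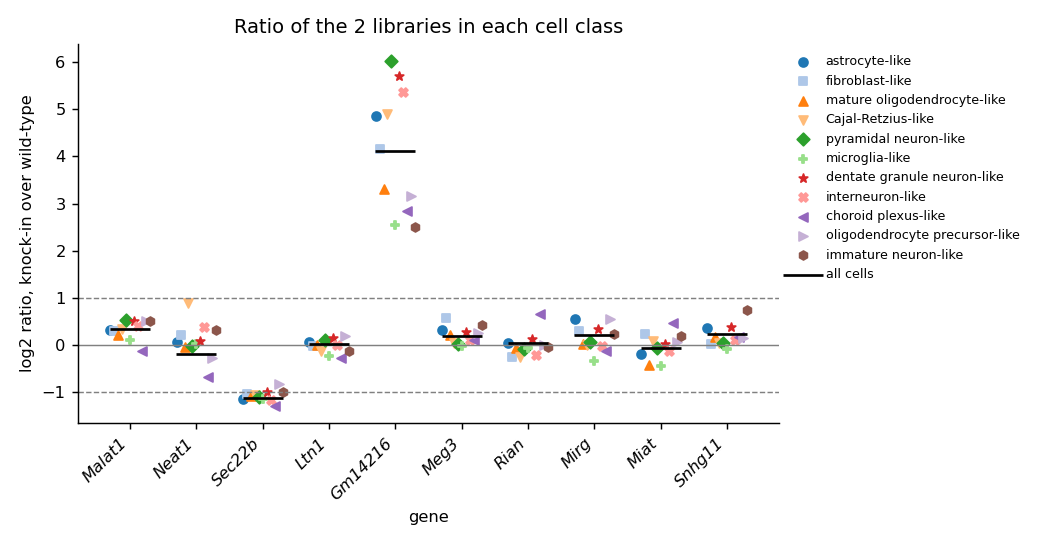
Log2 ratio of knock-in over wild-type (vertical axis) for each of the 10 genes (horizontal axis) in 11 cell classes (symbols) and over all cells (black bars), with dashed lines at the limits of -1 and 1. Gm14216 lies between 2.499 and 6.02 and Sec22b between -1.29 and -0.83, while the other 8 genes lie within the limits, Malat1, Meg3 and Snhg11 above 0 in 10 of 11 classes.

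Ltn1 had nearly equal levels in the 2 libraries and followed Malat1 in both. Its levels over all cells were 1.89 (wild-type) and 1.91 (knock-in) per 10000 (log2 ratio 0.02), with the same median of 1 and upper quartile of 2 per cell. Its class order resembled that of Sec22b, from 2.97 and 3.11 in astrocyte-like cells down to 1.14 and 0.936 in choroid plexus-like cells. Class ratios lay between -0.26 and 0.20, 5 above and 6 below 0, with none past the size rule. Across clusters r with Malat1 was 0.92 (wild-type) and 0.91 (knock-in), and r with Sec22b was 0.97 in each. The line on Malat1 gained 0.54 and 0.49 per 10000 for each 100 of Malat1, so the slopes were alike where those of Sec22b were not. Ltn1 was 0.970% of Malat1 in the median wild-type cluster and 0.743% in the median knock-in cluster, with ranges of 0.579% to 1.67% and 0.509% to 1.23%.

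Gm14216, annotated as a long intergenic noncoding RNA gene, was nearly at the floor of the table in the wild-type library. Of 7094 wild-type cells, 4755 were at 0 and 13 had a value of 2, the highest seen. Of 8836 knock-in cells, 145 were at 0 and 8223 had a value of 2 or more, with quartiles of 4, 6 and 10. The distributions barely overlapped. The share above 0 was 33.0% and 98.4%, and after thinning to 1000 it was 4.67% and 52.2%. The level was 0.372 per 10000 in the wild-type library against 8.04 in the knock-in library. Their log2 ratio of 4.11 depends on the near-zero denominator, being 2.72 with 1 per 10000 added and 6.61 with values of 1 set to 0.

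**Figure D3:**
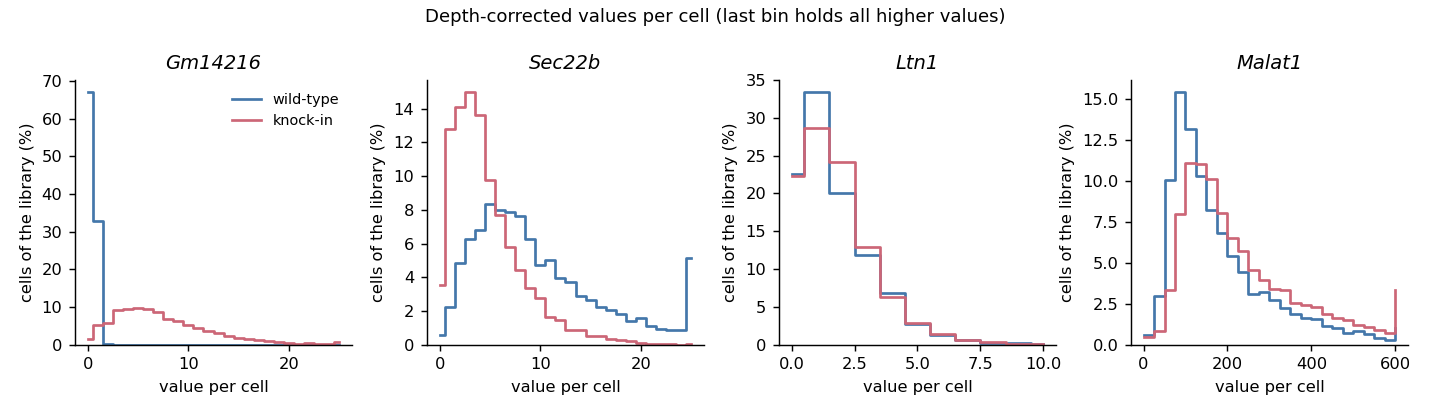
Percentage of each library's cells (vertical axis) at each depth-corrected value (horizontal axis) of Gm14216, Sec22b, Ltn1 and Malat1, with the last bin holding all higher values and Malat1 in bins of 25. The Gm14216 distributions barely overlap, Sec22b has a median of 8 in wild-type and 4 in knock-in cells, and those of Ltn1 lie on each other.

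All 11 classes had more Gm14216 in the knock-in library, each past the size rule. In the knock-in library it ranked the classes much as Malat1 did, from 14.8 per 10000 in astrocyte-like, 11.9 in fibroblast-like, 10.8 in mature oligodendrocyte-like and 10.7 in Cajal-Retzius-like cells to 4.34 in immature neuron-like and 3.12 in choroid plexus-like cells. Across 34 knock-in clusters r with Malat1 was 0.98, and Gm14216 stayed between 2.36% and 3.76% of Malat1. In the wild-type library the order was another one, with 1.00 per 10000 for mature oligodendrocyte-like, 0.756 for microglia-like and 0.685 for immature neuron-like cells against 0.0342 in interneuron-like, 0.0314 in dentate granule neuron-like and 0.0153 in pyramidal neuron-like cells. There r with Malat1 was 0.46 across 33 clusters and -0.03 with values of 1 set to 0. Values of 1 make up nearly all of the wild-type signal. The log2 ratio ran from 2.499 in immature neuron-like to 6.02 in pyramidal neuron-like cells. These wild-type levels are so near 0 that the ratios and the order of the classes changed with the amount added. With 1 per 10000 added it ran from 1.61 in choroid plexus-like to 3.48 in astrocyte-like cells.

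Abl1 and Hdc, which are not among the 10, also differed between the libraries. Hdc resembled Gm14216, and Abl1, lower in the knock-in library as Sec22b was, followed Malat1 far less closely there than Sec22b did. The kinase gene Abl1 had an r with Malat1 of 0.97 across wild-type and 0.43 across knock-in clusters, at 8.996 and 1.29 per 10000, and Hdc, the gene of histamine synthesis, had 0.47 and 0.97, at 0.417 and 8.67. The noncoding Gm17660 was also higher in the knock-in library, at 1.45 against 0.373 per 10000, yet its r with Malat1 was 0.06 and 0.04.

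**Figure D4:**
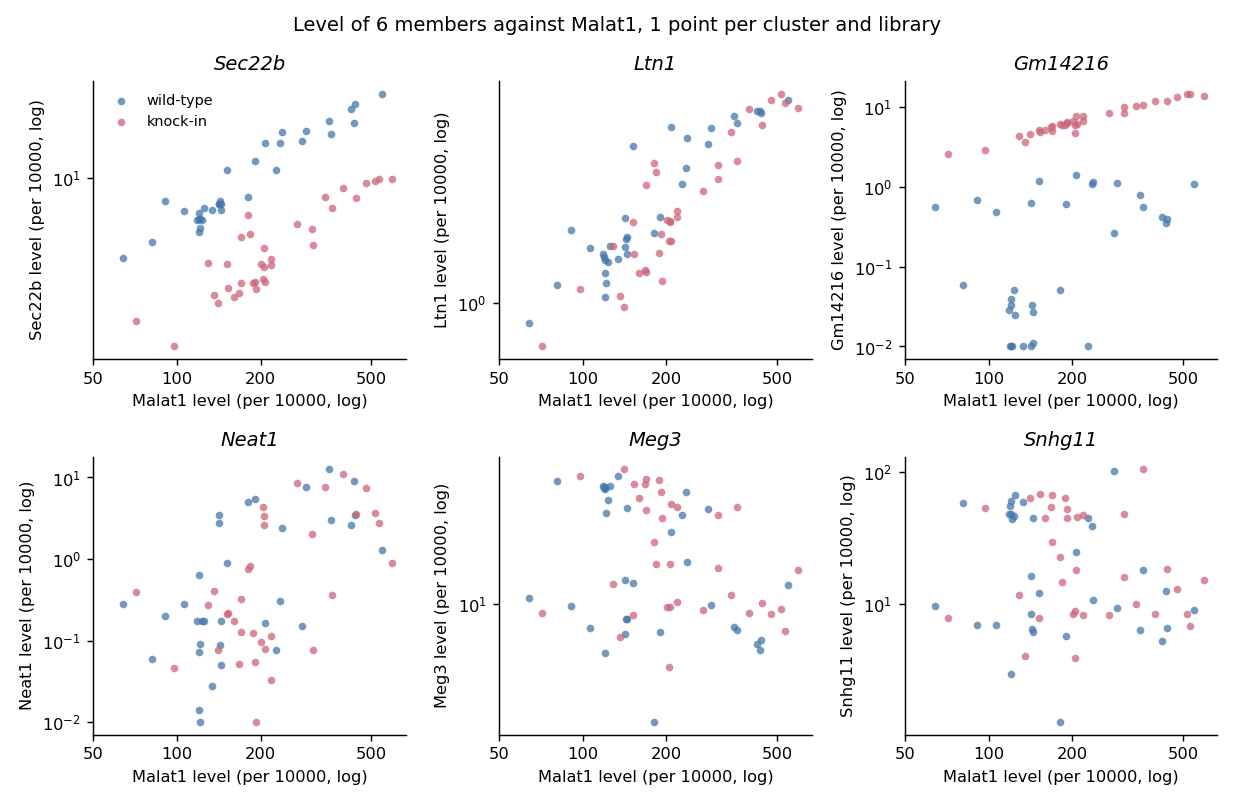
Level of 6 genes (vertical axis, per 10000, log scale) against that of Malat1 (horizontal axis, per 10000, log scale), 1 point per cluster of at least 20 cells, wild-type in blue and knock-in in red, with values under 0.01 drawn at 0.01. Sec22b rises with Malat1 along a separate line in each library, Ltn1 along nearly the same line, Gm14216 along a line in the knock-in library, and Meg3 and Snhg11 do not rise.

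The tie to Malat1 also held among cells of 1 class. Pearson's r of Sec22b with Malat1 across cells lay between 0.40 and 0.76 over the 11 wild-type classes (median 0.64) and between 0.31 and 0.67 over the knock-in classes (median 0.49). For Gm14216 it was 0.38 to 0.78 in the knock-in (median 0.62) and -0.24 to 0.34 in the wild-type library (median 0.02). Ltn1 was weaker, with medians of 0.25 and 0.29, and values this small in sparse data are not read as a pattern. Cells of a class share a library and their values a total, so these too are descriptions.

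Ranking astrocyte-like cells by Malat1 shows the size of the tie. Wild-type cells were split by rank into 5 equal groups. From the lowest to the highest group Malat1 went from 166 to 707 per 10000, Sec22b from 10.4 to 30.8 and Ltn1 from 1.79 to 4.37. In knock-in cells Malat1 went from 236 to 824, Sec22b from 5.95 to 13.4, Ltn1 from 2.00 to 4.23 and Gm14216 from 8.33 to 21.0. Wild-type Gm14216 went the other way, from 0.660 to 0.286, and so did Meg3, from 7.52 to 4.56 in wild-type and 10.2 to 5.90 in knock-in cells. In pyramidal neuron-like cells Sec22b went from 3.89 to 12.8 in wild-type and from 1.77 to 5.75 in knock-in cells over the same ranking, while Meg3 moved little, from 39.3 to 45.3 and from 42.8 to 43.5. A group with high Malat1 thus had high Sec22b in each library. At the same rank, knock-in cells of these 2 classes had less Sec22b although their Malat1 was higher. Across ranks the levels overlapped, since the highest knock-in astrocyte-like group (13.4) was above the lowest wild-type group (10.4).

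**Figure D5:**
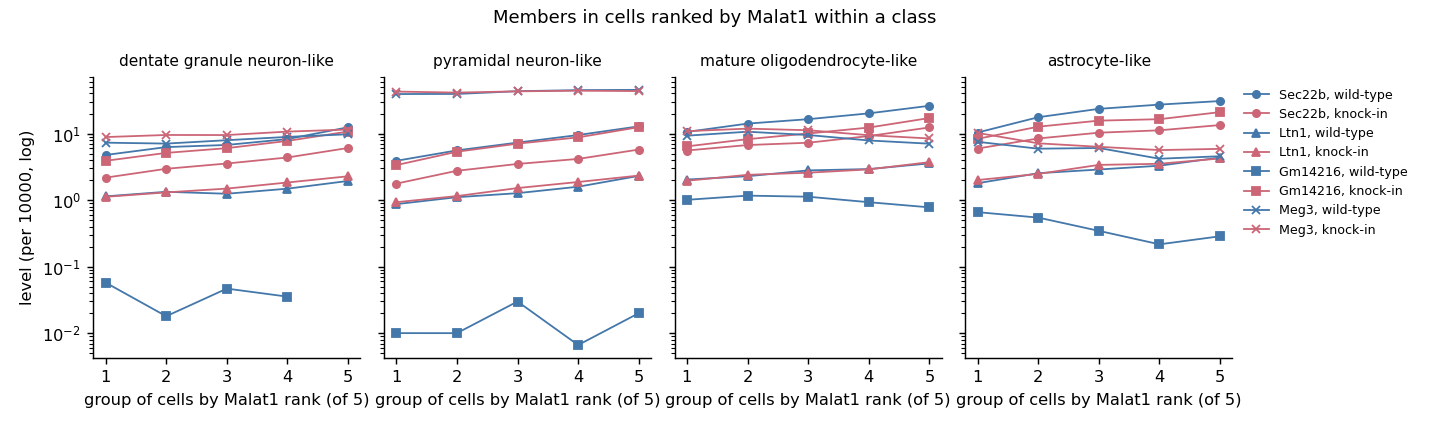
Levels per 10000 (vertical axis, log scale) of Sec22b, Ltn1, Gm14216 and Meg3 in 5 equal groups of cells ranked by Malat1 (horizontal axis) within 4 classes, wild-type in blue and knock-in in red, with a level of 0 not drawn. In astrocyte-like cells Sec22b rises from 10.4 to 30.8 in wild-type and from 5.95 to 13.4 in knock-in cells, and Meg3 does not rise.

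Neat1 shared the glial part of the Malat1 pattern. It was highest in mature oligodendrocyte-like cells, with 9.11 (wild-type) and 8.87 (knock-in) per 10000, followed by fibroblast-like cells (3.04 and 3.52), astrocyte-like cells (2.70 and 2.85) and choroid plexus-like cells (2.26 and 1.37). Pyramidal neuron-like cells were lowest in both libraries, at 0.0627 and 0.0607, a 145-fold span in the wild-type library. Its r with Malat1 across clusters was 0.63 and 0.58, and with Meg3 -0.74 and -0.69. Over all cells Neat1 was at 2.23 and 1.94 per 10000 (log2 ratio -0.19), and the class ratios, 7 above and 4 below 0, were between -0.68 and 0.89 with the extremes in the small choroid plexus-like and Cajal-Retzius-like classes.

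Meg3 led a second pattern, high in most neurons and low in glia. Interneuron-like cells were highest, with 52.9 (wild-type) and 57.2 (knock-in) per 10000, then pyramidal neuron-like cells with 42.4 and 42.9 and Cajal-Retzius-like cells with 38.3 and 39.6. No other class was above 13.2 in either library, and astrocyte-like cells, the highest for Malat1, were the lowest at 5.66 and 7.07. Dentate granule neuron-like cells stood with the glia, at 8.21 and 10.02. Across clusters r of Meg3 with Malat1 was -0.35 and -0.32.

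Rian and Mirg, which lie downstream of Meg3 on the same strand, had its pattern. Rian was at 6.87 and 5.92 per 10000 for interneuron-like, 5.75 and 5.39 for pyramidal neuron-like and 5.16 and 4.32 for Cajal-Retzius-like cells. It was at most 1.73 in the other classes compared. Mirg was at 2.83 and 2.81, 2.17 and 2.27, and 1.31 and 1.31 in these classes, and at most 0.572 in the others compared. Their r with Meg3 across clusters was 0.96 and 0.97 for Rian and 0.92 in both libraries for Mirg. The order of the 3 leading classes was the same for the 3 genes in both libraries.

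Snhg11, a small nucleolar RNA host gene on another chromosome, was also high in these neurons. It reached 102 and 105 per 10000 in Cajal-Retzius-like, 62.6 and 67.6 in interneuron-like and 47.8 and 49.2 in pyramidal neuron-like cells, against 5.37 and 6.94 in astrocyte-like cells. Its r with Meg3 was 0.94 and 0.96. Miat differed from the others in where it was high. It was at 2.47 and 2.37 in pyramidal, 2.04 and 2.08 in dentate granule and 1.97 and 2.25 in immature neuron-like cells, above the 1.04 and 0.952 of interneuron-like cells, and its r with Meg3 was 0.78 and 0.75.

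None of these 5 genes, nor Malat1, Neat1 or Ltn1, was past the size rule in any class, which a gene under 1 per 10000 in both libraries could not be. Over all cells the wild-type and knock-in levels of Meg3 were 21.1 and 24.1 per 10000 (log2 ratio 0.19), those of Snhg11 22.4 and 26.4 (0.24) and those of Mirg 0.918 and 1.08 (0.22). Rian was at 2.76 and 2.83 and Miat at 1.51 and 1.45, and the sign of both ratios changed with the settings. The median ratio of the 10 genes was 0.11, with 7 above and 3 below 0. Over the 2075 genes judged the median was -0.076, with 564 above and 1511 below 0. Within classes the knock-in level of Meg3 was the higher one in 10 of 11, with ratios of 0.02 in pyramidal neuron-like, 0.11 in interneuron-like, 0.32 in astrocyte-like, 0.44 in immature neuron-like and 0.56 in fibroblast-like cells. Snhg11 was also higher in 10 of 11, up to 0.73 in immature neuron-like cells. The exception for both was the microglia-like class. Rian was lower in 8 of 11 classes, Mirg higher in 7 and Miat higher in 6.

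Clusters of microglia-like cells show how far the 10 genes can vary inside 1 class. In the wild-type library a cluster of 252 cells and another of 245 had like Malat1, at 152 and 120 per 10000, but Sec22b at 10.98 and 5.45, Ltn1 at 2.43 and 1.03, Meg3 at 13.4 and 4.96 and Snhg11 at 12.03 and 2.91. The knock-in parts of these clusters (365 and 380 cells) had Malat1 at 183 and 136, Sec22b at 5.38 and 2.70, Meg3 at 17.5 and 6.203 and Snhg11 at 14.7 and 3.97. Between these clusters summed ribosomal protein genes moved the opposite way, with 37.9 and 313 per 10000 for wild-type and 56.9 and 312 for knock-in cells. The sum of 14 pyramidal neuron markers was 12.7 and 4.03 in wild-type and 11.2 and 3.03 in knock-in cells. Of the 14, 0 were at 0 in the first cluster, and 1 (wild-type) and 0 (knock-in) in the second. The part of ribosomal and neuronal transcripts in the levels of the 10 genes in these clusters was not tested. Another microglia-like cluster, of 168 wild-type and 120 knock-in cells, did not keep that opposition. Its ribosomal protein sums were high, at 486 and 598, and so were its Sec22b (14.8 and 6.65), Meg3 (27.9 and 24.2) and Snhg11 (24.6 and 22.6), with pyramidal marker sums of 17.8 and 15.3. The class ratios of Meg3 (-0.03) and Snhg11 (-0.08) turned positive when each cluster had the same weight in both libraries.

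Choroid plexus-like cells split in a like way. The cluster of 40 wild-type cells had Malat1 at 181 and Neat1 at 4.93 per 10000, and the one of 61 had 63.9 and 0.284, with ribosomal protein sums of 16.8 and 381. Knock-in cells gave Malat1 at 204.0 and 71.2 and Neat1 at 4.37 and 0.397, from 21 and 67 cells. The lower class level of Malat1 in knock-in choroid plexus-like cells thus stands beside a smaller share of the Malat1-rich cluster, and within each cluster Malat1 was higher in the knock-in library.

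Genes outside the 10 were compared with 4 of them by the same r, over 1991 wild-type and 1971 knock-in genes of at least 1 per 10000. For Malat1 the nearest in the wild-type library were Abl1 (0.97), Dmxl1 (0.87), Arglu1 (0.82), Arhgef12 (0.81) and the RNA helicase Ddx17 (0.78), and in the knock-in library Hdc (0.97), Nfat5, Arhgef12, the splicing kinase Clk1 and Luc7l2 (0.77 to 0.78). Beyond Abl1 or Hdc, no gene outside the 10 came as near to Malat1 as Sec22b and Ltn1 did. Sec22b and Ltn1 were picked for following Malat1 in these same cells, so this ranking is only a description. Sec22b was nearest to Abl1, Dmxl1, Arglu1, Ddx17 and Luc7l2 (0.82 to 0.94) in wild-type and to Hdc, Arhgef12, Ddx17, Dmxl1 and Clk1 (0.80 to 0.93) in knock-in cells. Gm14216 in the knock-in library was nearest to Hdc (0.98), then Dmxl1, Arhgef12, Tom1l2 and Nfat5 (0.72 to 0.73). In the wild-type library, where it was nearly all values of 1, its nearest genes were Gm20388, Gnb1, Gm28437, the mitochondrial ribosomal RNA gene mt-Rnr2 and Gm10925 (0.80 to 0.87). Meg3 was nearest to A230006K03Rik, the calcium sensor gene Vsnl1, Ptprn2, Stmn3 and the imprinted ubiquitin ligase gene Ube3a (0.91 to 0.93) in wild-type and to Vsnl1, Ube3a, A230006K03Rik, 9330162G02Rik and Ptprn2 (0.91 to 0.93) in knock-in cells.

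Partner genes of Sec22b and Ltn1 had ratios near 0. Among all 7842 genes of at least 0.2 per 10000, 4932 had ratios above and 2910 below 0. Of 18 SNAREs and partners of Sec22b, 17 were measured and 12 reached 0.2 per 10000. Of these, 7 had ratios above and 5 below 0, median 0.01, from Gosr2 (0.16) and Sec24c (0.11) to Sec24b (-0.09) and Sec24d (-0.16). The paralogue Sec22a was at 0.423 and 0.431 per 10000. Of 15 genes of ribosome-associated quality control, in which Ltn1 acts, 13 were measured and 10 were at that level. Of these, 6 were above and 4 below 0, median 0.01, from Rack1 (0.17) and Ufd1 (0.09) to Ascc3 (-0.06) and Ascc2 (-0.13). Only 1 gene of the first list and 2 of the second reached the level at which the size rule could be applied, and none of these was past it.

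Of 16 speckle and paraspeckle protein genes 15 were at that level, 11 above and 4 below 0, median 0.07, from Srsf5 (0.23) and Srsf1 (0.19) to Sfpq (-0.08) and Srrm2 (-0.18). Of 31 other noncoding RNA genes 26 were measured and 18 were at that level, 12 above and 6 below 0, median 0.03. Of the 13 that could be judged Gm17660 (1.71) alone was past the rule, beside 0.289% of all genes judged. Gm17660 was known to differ between the libraries when the list was made, so its passing is no finding of the list. The next were Rmst (0.24) at the upper end and Pvt1 (-0.16) and A330008L17Rik (-0.40) at the lower. In the Dlk1-Dio3 region Rtl1 (0.30) and Mirg led and Rian and Meg3 were lowest of 4 genes. All 7842 genes at that level had a median of 0.046, with 4932 above and 2910 below 0. Most noncoding RNAs of the list thus stayed near the middle of all genes.

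Transcripts of ribosomes and mitochondria differed in the same direction as Malat1. Of the cytosolic ribosomal protein genes, 71 of 71 were higher in the knock-in library, median 0.23, from Rps3a2 (0.06) and Rpl5 (0.08) to Rps28 (0.48) and Rpl38 (0.54). The size rule could be applied to 7 of them, and none was past it. Of the mitochondrially encoded genes, 12 of 12 were higher, median 0.63, from mt-Cytb (0.45) and mt-Nd4l (0.47) to mt-Nd3 (1.13) and mt-Co2 (2.47). Both of the last were too low for the size rule, and mt-Co2, at 0.00617 and 0.490 per 10000, has a ratio set by the added 0.1. Their summed levels were 41.2 and 34.6 per 10000 in wild-type and 49.9 and 51.6 in knock-in cells. Their part in the Malat1 difference was not tested.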

How the data were processed

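Single-cell transcripts of 1 pooled wild-type and 1 pooled Pigv341E library were analysed. The authors deposited 1 table of whole numbers per gene and cell, used here as a score: per the submitters' processing notes Seurat 3.0.0 and GRCm38 were used, and the narrow totals per cell fit a depth correction. The aligner, cell filter and any removal of doublets are not given in the sources used here. With 1 library per genotype and no raw counts, no test, interval or count model was applied.

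Cells were clustered with scanpy 1.11.5 (Python 3.11.15), scaled to 10000 and log-transformed, with 2000 variable genes, 30 principal components, 15 neighbours and Leiden resolution 1. The 10 genes, Abl1 and Hdc were kept out of the clustering genes. This gave 36 clusters, 7 of them unnamed. A cluster was named when it had at least 3 markers, each above 0 in 25% of its cells and 1.5-fold higher than in other cells, and more than for any other class. A cluster with enough markers still stayed unnamed when its most enriched genes or its markers also pointed to another class. The same held when mitochondrial genes led it. It also held when none of its markers led and they were few or its totals were low. Doublets were kept (Scrublet called 61 wild-type and 209 knock-in cells). The size rule was checked on simulated cells with genes changed 0.25-, 0.3-, 3- or 4-fold, and 100% of these were past it. No change near the limit of 2-fold and no difference between libraries was simulated. The check therefore says nothing about ratios near the limit or about the cause of a difference.

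The 10 genes, the gene lists and the naming rule were chosen with earlier results of these data known. Named besides the 10 are Abl1, Hdc, Gm17660, the 5 genes of highest r with Malat1, Meg3, Sec22b and Gm14216, and the 2 highest and 2 lowest ratios of each list. Tried were 16 alternatives, 14 planned and 2 added after seeing the data.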

Additional observations from a re-analysis of the deposited data

How the results depend on the processing

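Levels and ratios were recomputed under 16 settings, of which leaving out the barcodes found in both libraries and leaving out the cluster led by mitochondrially encoded genes were chosen after seeing the data. The limits for calling a value moved (0.2 in log2 ratio, 0.1 in r, 1.5-fold in counts) were set with the class values in view. With a pseudocount of 1 per 10000, 3 classes rather than 8 had Sec22b past the size rule, because the added amount shrinks every ratio. Over all cells the Sec22b ratio stayed between -1.14 and -1.003, and that of Gm14216 between 2.72 and 6.61, and both stayed past the rule. The ratios of Rian (-0.09 to 0.13) and Miat (-0.06 to 0.06) changed sign. Of the ratios within classes, 1477 counted as unchanged and 51 moved by more than the limit. Another 4 crossed the size rule outward and 8 inward, all 12 of them for Sec22b. A ratio that stayed past the size rule counted as unchanged however far it moved. The 1477 thus include ratios of Gm14216, which ran from 1.61 to 8.19 over classes and settings. Correlations with Malat1 across clusters lay between 0.95 and 0.96 (wild-type) and 0.88 and 0.92 (knock-in) for Sec22b, and between 0.91 and 0.93 and between 0.89 and 0.92 for Ltn1. For Gm14216 they lay between 0.97 and 0.99 in the knock-in library and between -0.03 and 0.50 in the wild-type library. No paired analysis was possible because each genotype is 1 pooled library. The true depth of each cell is unknown, and the spread between mice was not measured.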
